A study of Caenorhabditis elegans with 2 samples.

Results

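The genes described here are the muscle myosin heavy chain genes unc-54, myo-3, myo-1, myo-2 and myo-5 and the paramyosin gene unc-15. They are 6 of the 19973 protein-coding genes on the nuclear chromosomes of Caenorhabditis elegans and were chosen by name, as body wall myosins, pharyngeal myosins and paramyosin. Earlier results of these data were known when the genes were chosen. For each gene, every region with its summit between 3000 bp upstream of the gene and the gene's end was taken from 3 deposited lists. The lists come from chromatin immunoprecipitation and sequencing (ChIP-seq) of tagged PAT-9, a zinc finger transcription factor required for body wall muscle. Whole embryos of mixed sex were used, at a stage labelled late embryonic with an age of 3 hours, in 2 biological replicates that form a single group with no second condition. The strain, RW12085, carries an insertion at pat-9 made with CRISPR. Its genotype label names mNG and 3xFlag tags, but other labels name an eGFP fusion or a C-terminal GFP-FLAG tag, and the precipitating antibody was against GFP.

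Muscle myosin is the motor of the thick filament, and its heavy chain carries the head that pulls on actin and the rod that packs into the filament. In body wall muscle of C. elegans, UNC-54 (heavy chain B) makes up the filament arms and MYO-3 (heavy chain A) the filament centre, around a core of paramyosin, UNC-15. The pharynx, a separate pumping muscle, uses its own heavy chains MYO-1 and MYO-2, and myo-5 is grouped here with these genes. Paramyosin is used in the pharynx too, so unc-15 is not a body wall gene alone. Reporter work is known to have placed a muscle enhancer of unc-54 within an intron.

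Both body wall myosin genes and the paramyosin gene had an optimal peak, and none of the 3 pharyngeal genes did. Optimal peaks are the regions that passed the authors' reproducibility filter, and they are exactly the strongest of the 30000 pooled regions by the authors' signal value, down to a signal of 101.3. The count of 3 in 6 genes stands beside a background of 4.90% of all protein-coding genes in the same kind of window. Long windows catch more peaks. The windows of the 6 genes run from 9594 to 12162 bp, against a median of 5027 bp. Among the 879 genes with windows of that length 8.30% had an optimal peak. Most genes with such windows had none, so the lack of an optimal peak does not set the 3 pharyngeal genes apart. The strongest pooled region reached a signal of 177 at unc-15 (rank 240 of 30000), 114 at unc-54 (rank 566) and 105 at myo-3 (rank 680). It reached 44.5 at myo-2 (rank 7334) and 41.4 at myo-1 (rank 9106), and the pooled list held no region at all in the window of myo-5. The median over the 13523 genes with a pooled region was 42.6, close to the values of myo-1 and myo-2 and well below those of the other 3 genes. Whether PAT-9 binds the pharyngeal genes at all was not tested. Because whole embryos were used, no binding, binding in fewer cells and weaker binding per cell cannot be told apart.

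**Figure D1:**
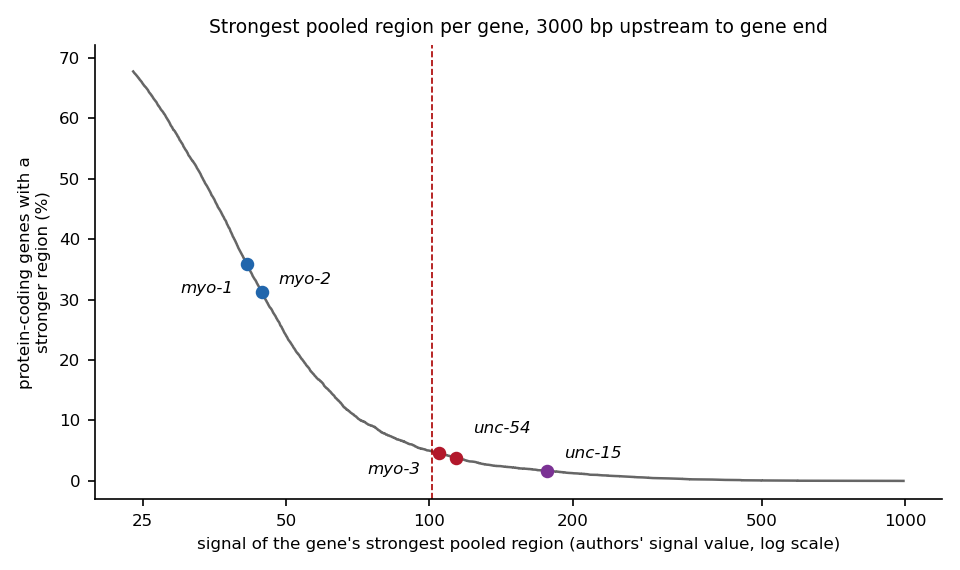
Signal of the strongest pooled region of a gene (x, the authors' signal value on a log scale) against the share of protein-coding genes with a stronger region (y, %); the line is all genes, points are members, and the dashed line is the lowest signal of an optimal peak, 101.3. The points of unc-15, unc-54 and myo-3 lie right of the dashed line and those of myo-2 and myo-1 left of it, and myo-5 has no pooled region and no point.

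Ordered among all protein-coding genes by this strongest region, 1.67% of genes had a stronger one than unc-15, 3.84% than unc-54 and 4.63% than myo-3. For myo-2 the share was 31.2% and for myo-1 35.9%. Among the genes with windows as long, these shares were 2.16%, 5.92%, 7.28%, 55.5% and 61.7% in the same order. The difference between the body wall and pharyngeal genes was not tested, since genes are not replicates and the design has 1 group.

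At myo-3 (WBGene00003515), on chromosome V from 12226817 to 12234343 of build ce11 and read from the minus strand, the optimal peak lay inside the gene. It covered positions 12233434 to 12233863, with the summit at position 694, counted in bp from the gene's 5′ end with upstream positions negative. That is inside intron 1, which is 1069 bp long and spans positions 179 to 1247. The signal was 105 in the pooled list (−log10 q of 2.66), 46.4 in replicate 1 at rank 621 and 51.6 in replicate 2 at rank 1343. Signal values rank regions within a list and are not compared between lists. Cut to the length of the optimal list, the list of replicate 1 held the site and that of replicate 2 did not. The summits were close, at position 705 in replicate 1 and 694 in replicate 2. The region nearest upstream of the start, at position -378, was far weaker. It ranked 6212 in the pooled list and 3117 in replicate 2, and the region overlapping it in replicate 1 ranked 20605. The other 3 pooled regions at myo-3, at positions -1211, -601 and -1418, ranked 7828 to 21578.

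The sequences at these summits are shown because they are the sites that set the myo-3 result, with 100 bp on either side of the summit and on the strand of myo-3, from the RefSeq assembly of the same build. The intron site is chrV:12233549-12233749 and the upstream site chrV:12234621-12234821, both on the minus strand. Capitals mark matches of 7 fixed words on either strand, of which the E-box CANNTG, a word bound by basic helix-loop-helix factors such as the MyoD homologue HLH-1, and the GA repeat GAGAGA (read as TCTCTC here) were found.
myo-3 intron 1: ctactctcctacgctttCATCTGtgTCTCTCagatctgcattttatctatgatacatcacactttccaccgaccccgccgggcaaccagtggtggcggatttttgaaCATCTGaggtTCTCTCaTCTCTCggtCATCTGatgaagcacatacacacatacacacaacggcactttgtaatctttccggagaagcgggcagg
myo-3 upstream: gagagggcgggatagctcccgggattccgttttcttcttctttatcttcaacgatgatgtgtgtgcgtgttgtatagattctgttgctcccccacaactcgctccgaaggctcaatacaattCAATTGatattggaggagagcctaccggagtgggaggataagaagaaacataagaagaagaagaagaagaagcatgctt
The intron site held 3 E-boxes, all CATCTG, starting at -83, 7 and 33 bp from the summit, and 3 GA words starting at -75, 17 and 24 bp. In windows of this length, 53.3% of all pooled and 55.2% of all optimal summits held an E-box, and 17.4% and 37.4% a GA word. The upstream site held an E-box, CAATTG, starting 22 bp after the summit, and no GA word in these letters.

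The pooled myo-3 summit also lay in an annotated noncoding RNA gene. K12F2.3, of class ncRNA on the strand opposite to myo-3, contained the summits of the pooled list and of replicate 2. The summit of replicate 1 lay 7 bp outside it. Genes of this class contained the summit of 22.3% of the optimal peaks and of 3.17% of the other pooled regions. Small RNA genes (tRNA, snoRNA, snRNA and rRNA) lay within 200 bp of the summit for 32.8% of the optimal peaks, for 1.43% of the other pooled regions and for 0 of the 25 pooled regions of the 6 genes, of which 3 are optimal. The part of K12F2.3 in the myo-3 signal was not tested.

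At unc-54 (WBGene00006789), on chromosome I from 14855901 to 14863482 and also on the minus strand, the optimal peak again lay in an intron. It covered positions 14862035 to 14862464, with the summit at position 1232. This is intron 3, 481 bp long from position 975 to 1455. The signal was 114 in the pooled list, 43.4 in replicate 1 at rank 759 and 69.0 in replicate 2 at rank 647. Cut to the length of the optimal list, the list of replicate 1 ended at a signal of 43.7 and just missed it. A region at the start of the gene, with the summit at position -111, had a signal of 85.9 at pooled rank 1073. Its −log10 q of 2.63 was slightly above the 2.58 of the intron peak, so the authors' measures order these sites differently. The replicates did not place the start region alike: it ranked 824 in replicate 2 and 10262 in replicate 1. A more distant region at position -2189 followed, at pooled rank 1426, with 1372 in replicate 2 and 14941 in replicate 1. A region at position -1624 ranked 4561, 5226 and 7087 in the pooled list, replicate 1 and replicate 2. The remaining 3 pooled regions lay in coding exon 6, the long exon of the gene, and ranked 6508, 12254 and 19833. No other protein-coding gene had a start within 500 bp of any of these 7 summits.

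At unc-15 (WBGene00006754), on chromosome I from 7376604 to 7383197 on the minus strand, the optimal peak lay at the promoter. It covered positions 7383112 to 7383541, with the summit at position -130 and a −log10 q of 2.91, the ceiling of the pooled list. The signal was 177 in the pooled list, 55.0 in replicate 1 at rank 407 and 124 in replicate 2 at rank 192. Among the strongest regions of the 6 genes it was the only one that stayed in both replicate lists when these were cut to the length of the optimal list. An intron site followed here too. Its summit at position 2069 fell in intron 5, 1071 bp long, with a pooled signal of 93.6 at rank 868, below the lowest optimal peak at 101.3. Replicate 2 ranked it 546 and replicate 1 ranked it 17280. This intron lies upstream of the start of a shorter transcript of unc-15, from which the summit is at position -1800. A weaker region at position -930 ranked 4348 and lay within 500 bp of a start of the neighbouring gene C15A11.2, which is transcribed in the opposite direction. The last 3 pooled regions lay in coding exon 10 and the 3′ UTR, at ranks 9297 to 28345.

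**Figure D2:**
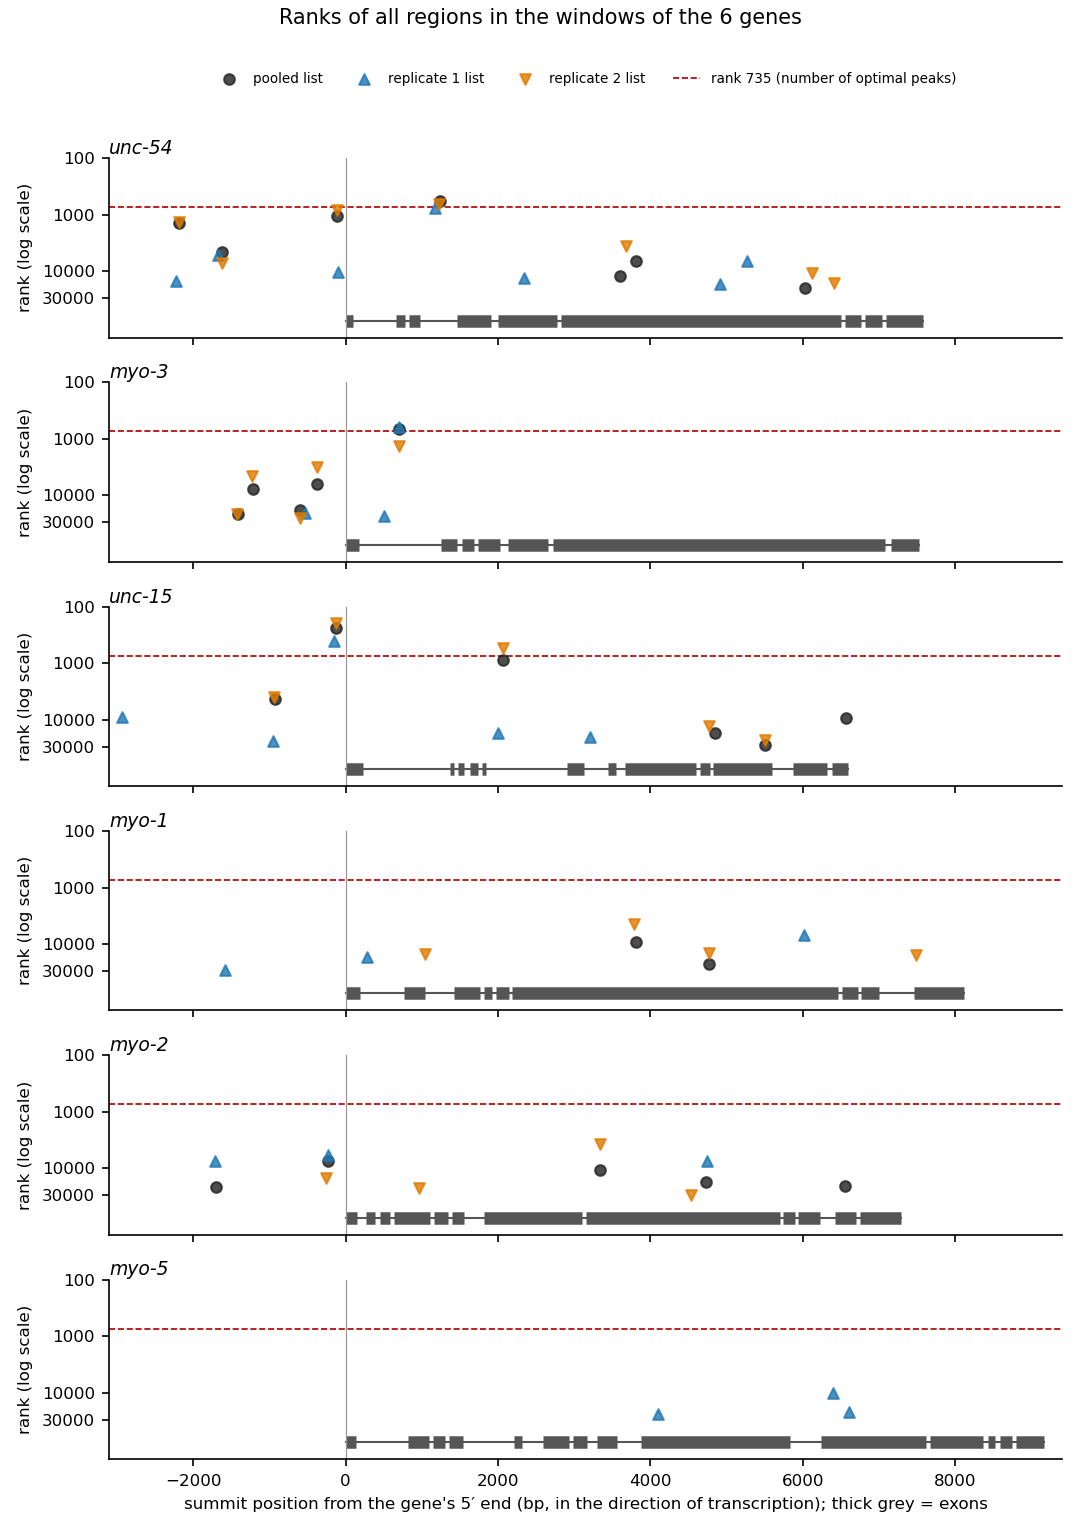
Rank of every region (y, log scale, strongest at the top) by the position of its summit from the gene's 5′ end (x, bp, in the direction of transcription) for the 6 genes; symbols are the pooled list and each replicate's list, thick grey bars are exons, and the dashed line is the rank of the last optimal peak. Regions above the line appear in intron 3 of unc-54, in intron 1 of myo-3, at the start of unc-15 and, in replicate 2, in intron 5 of unc-15, and none of the pharyngeal genes has a region near the line.

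The strong intragenic sites of these genes were intronic. Of the 25 pooled regions over the 6 genes, 11 were upstream, 10 in coding exons, 3 in introns and 1 in a 3′ UTR. The 3 intron regions ranked 566, 680 and 868, whereas the strongest of the 10 exon regions ranked 6508. An optimal peak in an intron of the gene was found for 2 of the 6 genes, unc-54 and myo-3, against 1.00% of all protein-coding genes and 2.84% of genes with windows as long. Within a promoter window (up to 1000 bp before and 500 bp after any annotated transcript start) unc-15 was the only one of the 6 with an optimal peak, against 2.58% of all genes. A count over promoter windows alone therefore misses unc-54 and myo-3. At least 1 pooled region of any strength was present for 5 of the 6 genes, against 67.7% of all genes, so the presence of a weak region sets no gene apart. That share is over windows of all lengths, mostly shorter than those of the 6 genes, and was not taken over windows as long.

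The GA repeat was found within 50 bp of the pooled summit at all 3 optimal peaks and all 3 intron regions of these genes, but its presence depended on which list set the summit. The sets share the peaks of unc-54 and myo-3, so together they are 4 regions. Around the summits of replicate 2 the word was again present at all 4. Around those of replicate 1 it was present at myo-3 (position 705) and not in intron 3 of unc-54 (summit at position 1174), at the promoter of unc-15 (-151) or in intron 5 of unc-15 (2006). In windows of the same length, GAGAGA was present at 19.5% of all optimal summits and 9.71% of all pooled summits. It was also present at 2 of the 19 weaker regions of the 6 genes, those beyond rank 1470. The link to strength was noticed after the values were seen and was not tested. E-boxes were present at 6 of the 25 summits, against 32.6% of all pooled summits, and among the 6 regions down to rank 1470 only the myo-3 intron held one. The E-box CAGCTG, the CArG box (bound by SRF-type factors), the MEF2 box and the NK-2 type homeodomain word CACTTNA were found at none of the 25, with shares of 2.56%, 0.76%, 2.11% and 4.27% over all pooled summits. The forkhead type word TGTTTNC was found at 2 of the 25, against 8.75%. The 25 windows held 47.3 ± 8.29% GC (SD over regions), between the 41.1 ± 9.05% of all pooled summits and the 50.5 ± 7.23% of the optimal ones.

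At myo-2 (WBGene00003514), on chromosome X from 12468061 to 12475348 on the plus strand, the strongest pooled region lay just upstream of the start and was weak. It covered positions 12467616 to 12468045 with the summit at position -230, a signal of 44.5 and a −log10 q of 0.527. Replicate 1 had it at rank 5921 and replicate 2 at rank 14939. Replicate 2 instead placed a region in coding exon 8, at position 3337, highest for this gene, at rank 3786, and replicate 1 had no region overlapping the pooled one there. The summit at -230 lay in the annotated noncoding RNA genes T18D3.13 and T18D3.14. The remaining pooled regions of myo-2 lay in coding exons 8 and 11 and at position -1695, with ranks from 17671 to 21658. The promoter site with 100 bp on either side, chrX:12467731-12467931 on the plus strand, is shown for contrast with the myo-3 sites.
myo-2 upstream: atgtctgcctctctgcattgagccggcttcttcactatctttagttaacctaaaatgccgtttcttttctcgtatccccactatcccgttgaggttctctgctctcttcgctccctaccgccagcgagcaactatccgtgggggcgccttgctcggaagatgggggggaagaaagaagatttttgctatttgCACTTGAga
The capitals mark a single CACTTGA, 92 bp after the summit, which is a match of CACTTNA and, in its first 6 bases, of the E-box. In windows of this length, 8.26% of all pooled summits held CACTTNA. No GA word was present in these letters, and this window held 50.2% GC, beside 48.8% at the myo-3 intron site. The lack of the word is not general to myo-2, since its pooled region at position 4729 held 1 GAGAGA within 50 bp of the summit.

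The other pharyngeal genes had less. At myo-1 (WBGene00002348), on chromosome I from 7258946 to 7267057 on the minus strand, both pooled regions lay in coding exon 6, at positions 3815 and 4767. Their signals were 41.4 and 28.5, at ranks 9106 and 22126. Replicate 2 had matching regions at ranks 4488 and 14541 and replicate 1 had none, its own strongest region being elsewhere in that exon, at position 6019 and rank 6908. No pooled region lay upstream of myo-1. At myo-5 (WBGene00019064), on chromosome V from 8108970 to 8118131 on the plus strand, replicate 2 had no region in the window either. Replicate 1 had 3 regions in coding exons 9 and 10, at ranks 10187, 21767 and 23921. The density of pooled regions was 0.662 per kb at unc-54, 0.625 at unc-15, 0.486 at myo-2, 0.475 at myo-3, 0.180 at myo-1 and 0 at myo-5, against 0.354 over windows as long. By this count myo-2 stood beside myo-3, although its strongest region was weaker.

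The 3 optimal peaks passed the authors' filter and are among the strongest regions of a list made from both replicates. Their high ranks in each replicate are therefore no separate finding. These ranks, in replicate 1 and replicate 2, were 407 and 192 at unc-15, 759 and 647 at unc-54, and 621 and 1343 at myo-3. Of the 25 pooled regions of these genes, 13 overlapped a region in each replicate by at least 1 bp. Some pooled regions of myo-3 and unc-54 overlap one another and match the same replicate region. The counts are therefore of regions and not of separate sites. Over all pooled regions the share seen in both replicates was 49.9%, so the count for these genes is near the general share. Replicate 1 had an overlapping region for 56% of the 25 and replicate 2 for 92%, against 68.8% and 76.0% of all pooled regions. Seen from the replicates, 54.2% of the 24 regions of replicate 1 overlapped a region of replicate 2, and 48% of the 25 regions of replicate 2 the reverse. The start of unc-54, its region at -2189 and intron 5 of unc-15 all ranked beyond 10000 in replicate 1 and at 1372 or better in replicate 2. Over all pooled regions after the last optimal peak and down to rank 1470, which include these 3, 9.39% ranked beyond 10000 in replicate 1 and 0.816% in replicate 2, with median ranks of 1731.5 and 1221. With each replicate list cut to the length of the optimal list, unc-15 and myo-3 had a region in replicate 1 and unc-15 and unc-54 in replicate 2, 2 of 6 genes each time. The background was 4.73% of all genes in replicate 1 and 4.72% in replicate 2.

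**Figure D3:**
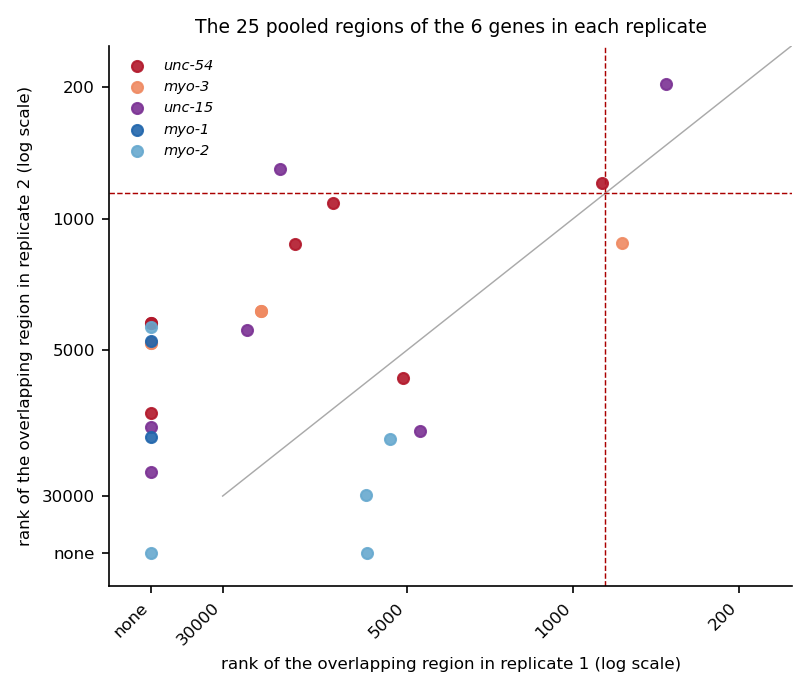
Ranks of the regions that overlap each of the 25 pooled regions in replicate 1 (x) and replicate 2 (y), on log scales with the strongest at the right and top, coloured by gene; regions without an overlap stand at "none", dashed lines mark the rank of the last optimal peak, and points that share a replicate region coincide. The unc-15 promoter is beyond both dashed lines, the introns of unc-54 and myo-3 lie beside their crossing, and points in the upper left are strong in replicate 2 only.

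Some other genes of the thick filament also had an optimal peak. None of the listed non-muscle myosin or pharynx genes did, which in lists so short is near the 4.90% of all protein-coding genes. Of 13 thick filament genes that code for light chains, giant proteins, chaperones and partners, 4 had an optimal peak in the same kind of window. The strongest was at ttn-1, which codes for a titin-like giant protein, with a signal of 240 at rank 117 and the summit at position -1675. The light chain genes mlc-1 and mlc-2 share a single peak (signal 161, rank 290), and mlc-3 had a signal of 134 at rank 389. The next in order were unc-89, an obscurin homologue, at rank 926, ufd-2, a ubiquitin ligase that acts on the myosin chaperone UNC-45, at 951, the twitchin gene unc-22 at 965 and unc-45 itself at 1069. None of these had an optimal peak. The window of ttn-1 is 84724 bp long, that of unc-89 58184 bp and that of unc-22 41311 bp, so they had far more room than the 6 genes. The strongest summits of ttn-1 (position -1675) and unc-22 (position 416) lay where the windows of the 6 genes reach too. That of unc-89, at position 11195, lay beyond such a window. The median rank of the strongest region was 965 over the 13 genes and 15747 over all protein-coding genes, with genes without a region counted last. These medians are not matched for window length, and the gene at the median of the 13 is unc-22.

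Of the 12 non-muscle and unconventional myosin genes found in the annotation 0 had an optimal peak. The strongest region was at hum-7 (rank 1567), followed by mlc-5, a light chain gene, at 2554, the non-muscle heavy chain gene nmy-1 at 4214 and hum-2 at 4751. The median rank was 8377.5. Of 5 pharynx genes 0 had an optimal peak. The pharyngeal organ identity gene pha-4 came closest, at rank 1174 with the summit at position 3401, and ranked 1367 in replicate 1 and 1614 in replicate 2. The troponin C gene tnc-2 ranked 5842, the NK-2 type homeobox gene ceh-22, whose product is known to activate myo-2, 6362, and tnt-4 15066. These lists are short and were read against the 4.90% of all genes without a test. A count of 0 in 12 or in 5 genes is near that share and sets neither list apart.

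**Figure D4:**
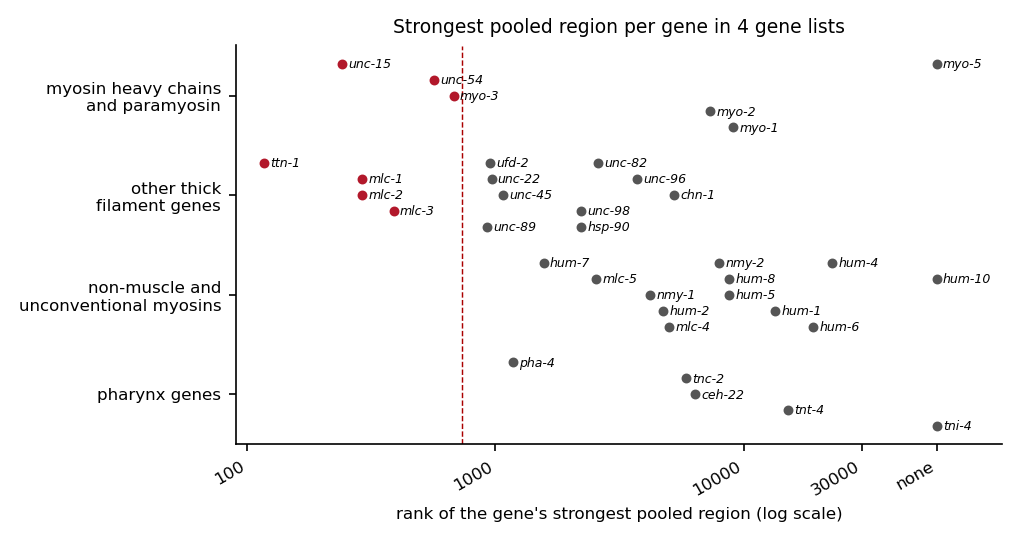
Rank of the strongest pooled region of each gene (x, log scale, strongest at the left) in 4 gene lists (y; the spread within a list is only to separate labels); red points have an optimal peak, the dashed line is the rank of the last optimal peak, and genes without a pooled region stand at "none". Red points occur for 3 of the 6 genes and 4 of the 13 other thick filament genes, of which mlc-1 and mlc-2 share a single peak. Neither of the other lists has one, which is near the 4.90% of all protein-coding genes.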

How the data were processed

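Per the descriptions deposited beside the lists, the authors called regions on build ce11 from each replicate's alignments with a control, and from both replicates together, and derived the optimal list from these lists by IDR, a reproducibility filter. The caller, its version and the IDR cutoff: not given in the sources used here. Control reads were not analysed here. Each region carries a signal value and a −log10 q deposited by the authors, read within a list only. Read depth is unknown. The labels call the replicates biological. Regions were ranked by signal (30000 per list) and placed on the annotation of Ensembl release 115 (WBcel235, which is ce11). Positions are given from the 5′ end of the gene. Sequence is from RefSeq. Overlap means at least 1 bp.

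No test was run: there is 1 group, and genes and regions are not replicates. Backgrounds are shares of all protein-coding genes. The members and lists were chosen with earlier results of these data known. Named were the 6 genes, up to 4 strongest members of each other list (for thick filament genes also the next 4, chosen after their ranks were seen), and other genes at described summits. The symbol hum-9 had no match in the annotation. Words were searched on both strands. Gene assignment and word search were tested on simulated data. Alternatives were other thresholds, windows, overlaps and each replicate alone. The work used Python 3.11.15, NumPy 2.4.6, pandas 2.3.3 and matplotlib 3.10.9.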

Additional observations from a re-analysis of the deposited data

How the results depend on the processing

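The count of 3 genes with an optimal peak was 3 with the strongest 1470 pooled regions and with summits given to the nearest transcript start, and 2 with either replicate alone. It was 1 with the strongest 367 optimal peaks (unc-15) and 1 in the promoter window, since the sites of unc-54 and myo-3 lie further inside the gene than that window reaches. With summits inside ncRNA genes left out, a setting chosen after seeing the data, it was 2, without myo-3. The best rank ran from 647 to 759 for unc-54 over the single replicates, from 621 to 1343 for myo-3, from 4488 to 6908 for myo-1 and from 3786 to 5921 for myo-2, and it was 1073 for unc-54 and 6212 for myo-3 in the promoter window. For myo-1 and myo-2 the single replicates took different regions as strongest. Of the 25 pooled regions, 12 were seen in each replicate when 50% of both regions had to overlap and 10 when summits had to lie within 100 bp. With 25 bp or 100 bp on either side of the summit, the E-box was found at 4 and 11 of the 25 summits (6 with 50 bp), GAGAGA at 5 and 9 (6 with 50 bp) and TGTTTNC at 1 and 4 (2 with 50 bp). With 100 bp GAGAGA was held by 36% of the 25, beside 17.4% of all pooled and 37.4% of all optimal summits. CAGCTG, the CArG box and the MEF2 box were found at 0 of the 25 summits with every window, and CACTTNA at 1 with 100 bp. With 2 replicates and no read depth, weak regions cannot be placed more precisely than these ranges show.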
